A study of Mus musculus with 9 samples.

Results

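The 10 genes for transcription factors of dorsal neural tube progenitors were followed through RNA sequencing of sorted mouse neural crest cells. They were taken by name from the deposited table: the SOXB1 genes Sox1, Sox2 and Sox3, the ZIC genes Zic1, Zic2 and Zic5, the paired box genes Pax6 and Pax7, and the homeobox genes Lmx1a and Otx2. All 10 names were among the 33495 genes of the table. Of these 10 genes, 8 had an FPKM value in every group, Sox1 had one in the mutant group only, and Otx2 had 0 reads throughout. The 3 groups of 3 samples each were a Mef2c neural crest conditional mutant cultured with endothelin-1 (ET-1), wild type cultured with ET-1, and wild type cultured with phosphate-buffered saline (PBS). All 9 samples came from C57BL/6 embryos at E9.5. The explants had lost the head above the first branchial arch and the tail, rested for 1 h, received 10 µM ET-1 or PBS, and stayed in culture for a further 12 to 15 h. Crest cells carrying a genetic label were then sorted. The driver of the label and of the Mef2c deletion was not given in the sources used here, nor was whether a sample was a single embryo or a pool. The cells of all 3 groups thus share the label, the explant culture and the sort.

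The dorsal neural tube is the sheet of dividing neuroepithelial cells from which the neural crest leaves, and it later forms the roof plate and the dorsal interneurons. SOXB1 proteins keep neuroepithelial cells in the progenitor state, ZIC zinc finger proteins act in neural tube closure and at the border between neural plate and crest, and PAX proteins divide the tube into bands from dorsal to ventral. LMX1A directs roof plate formation, while OTX2 marks forebrain and midbrain, which lie in the part of the embryo that was cut away. Zic genes and Pax7 are also active in premigratory crest and in somites, and Sox2 in glial precursors of the peripheral nervous system. These genes therefore mark neuroepithelium without being limited to it.

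Each group had 1 FPKM value per gene (fragments per kilobase of gene model at the depth of the group), so no value below has a replicate error. The pooled depth of a group, read from the steps between FPKM values of single-exon genes, was 46930101 reads in the mutant, 19801230 in wild type with ET-1 and 21507319 in wild type with PBS. A value of 1 FPKM thus stood for 46.9 reads per kb in the mutant, 19.8 in wild type with ET-1 and 21.5 in wild type with PBS. The intervals given for levels and folds are exact 95% intervals of these reads, Poisson for a level and Clopper-Pearson for a fold, and cover counting error only, since amplified reads are not independent molecules. A gene was called when its adjusted p was under 0.05, computed by Benjamini-Hochberg out of the authors' deposited table of p-values, over all genes with FPKM in the pair of groups and 1 FPKM or more in at least 1 of them. The adjusted values are not in that table. The words rose and fell are used of called genes only. Mef2c itself had 10.1 FPKM in the mutant, 25.2 FPKM in wild type with ET-1 and 7.71 FPKM in wild type with PBS. It fell in the mutant to 0.401 of the wild type with ET-1 (interval 0.389 to 0.414), and adjusting the p column in the authors' deposited table gave an adjusted p = 6.52e-11. In bulk RNA, fewer cells of a type and less RNA per cell cannot be told apart.

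None of the 8 progenitor factors with FPKM rose or fell in either comparison of the design. Of the 8 tested for ET-1 against PBS in wild type, 0 were called, where 0.533% of 15395 genes were called, 0.390% higher and 0.143% lower. Of the 8 tested for mutant against wild type under ET-1, 0 were called, where 4.94% of 15459 genes were called, 1.18% higher and 3.75% lower. At an unadjusted p under 0.05 in the authors' deposited table there were 2 of 8 for ET-1 and 1 of 8 for the mutant. Those for ET-1 were Lmx1a, with a higher value, and Pax6, with a lower one, where 4.51% of tested genes had such a p, 2.49% higher and 2.01% lower. The one for the mutant was Zic5, with a higher value, where 11.6% of tested genes had such a p, 4.45% higher and 7.12% lower. The summed level of the 8 genes was 183 FPKM in the mutant, 170 FPKM in wild type with ET-1 and 172 FPKM in wild type with PBS. Missing the threshold does not show that a gene was equal between groups, and for several members the counting interval of the fold did not hold 1.

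**Figure D1:**
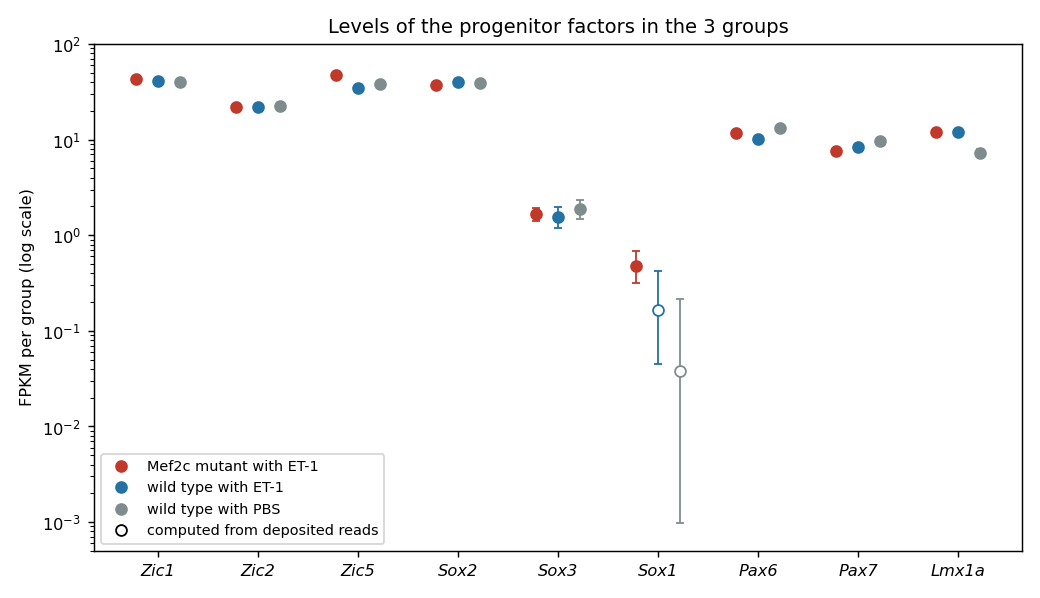
FPKM of each progenitor factor on a log scale in the Mef2c mutant with ET-1 (red), wild type with ET-1 (blue) and wild type with PBS (grey), with bars for the exact 95% interval of the reads; open points are levels computed from deposited reads. Zic1, Zic5 and Sox2 lie between 34.5 and 47.5 FPKM in every group, Sox3 stays under 2 FPKM, and Otx2, with 0 reads, is not drawn.

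Levels spanned more than an order of magnitude among the members, and their order was nearly the same in the 3 groups. The plot of levels by gene shows 4 genes above 20 FPKM in every group, namely Zic1, Zic5, Sox2 and Zic2. In the mutant the order was Zic5, Zic1, Sox2, Zic2, Lmx1a, Pax6, Pax7 and Sox3, and the intervals of the neighbours Lmx1a and Pax6 overlapped. In wild type with ET-1 it was Zic1, Sox2, Zic5, Zic2, Lmx1a, Pax6, Pax7 and Sox3, and the intervals of Zic1 and Sox2 overlapped. In wild type with PBS it was Zic1, Sox2, Zic5, Zic2, Pax6, Pax7, Lmx1a and Sox3, and the intervals of Zic1, Sox2 and Zic5 overlapped from one neighbour to the next. All other neighbours lay apart by more than counting error. The 2 moves within this order were that of Lmx1a, which stood below Pax6 and Pax7 with PBS and above both in the groups with ET-1, and that of Zic5, which stood highest in the mutant only. The members at the top were among the abundant genes of these cells: Zic1 exceeded 89.9% of tested genes in the mutant, 89.2% in wild type with ET-1 and 88.9% in wild type with PBS. Sox3 exceeded 10.7% of tested genes in the mutant, 9.38% in wild type with ET-1 and 13.1% in wild type with PBS.

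Among the SOXB1 genes, Sox2 carried nearly all of the signal. SOXB1 proteins share a DNA-binding HMG box, and the coding sequences below show how alike the 3 genes are in it, which bears on whether reads could have been split between them. The window of 90 bases is drawn from GENCODE M21 transcripts, 5′ to 3′ on the coding strand. Sox2 is the one compared with, and capitals in the other lines mark bases that differ from it.
Sox2, coding bases 166 to 255: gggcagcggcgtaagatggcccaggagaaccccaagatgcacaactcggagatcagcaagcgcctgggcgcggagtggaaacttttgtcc
Sox1, coding bases 190 to 279: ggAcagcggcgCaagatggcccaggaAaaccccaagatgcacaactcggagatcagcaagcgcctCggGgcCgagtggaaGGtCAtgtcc
Sox3, coding bases 469 to 558: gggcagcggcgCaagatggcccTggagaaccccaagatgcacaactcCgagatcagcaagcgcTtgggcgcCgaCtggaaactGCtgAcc
Sox1 differed from Sox2 at 10 of these 90 bases and Sox3 at 9. The longest identical coding stretch was 38 bases between Sox1 and Sox2, 45 between Sox1 and Sox3 and 32 between Sox2 and Sox3. No stretch of 50 bases was shared by any pair of the 10 members over their whole transcripts. Read length was not given in the sources used here, so how shorter reads from such stretches were placed is not known.

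Sox2 (ENSMUSG00000074637, mm9 chr3:34548927-34551383), the SOXB1 gene most used as a progenitor marker, had 37.0 FPKM in the mutant (interval 35.9 to 38.2, 4270 pooled reads), 40.3 FPKM in wild type with ET-1 (38.5 to 42.1, 1960 reads) and 38.7 FPKM in wild type with PBS (37.0 to 40.4, 2044 reads). These 3 levels differed by less than 10%. The fold for ET-1 over PBS was 1.04 (0.978 to 1.11), and adjusting the p column in the authors' deposited table gave an adjusted p = 1. The mutant over wild type with ET-1 gave 0.919 (0.871 to 0.970), and adjusting the p column in the authors' deposited table gave an adjusted p = 0.831, so counting error alone did not cover the lower mutant value, which yet did not pass the test. Its nearest other gene in the table, mmu-mir-1897, lay 11462 bases away and had 24.3 FPKM in the mutant (90 reads), 21.1 FPKM in wild type with ET-1 (33 reads) and 18.2 FPKM in wild type with PBS (31 reads). With so few reads, the intervals of the mmu-mir-1897 folds were wide and held 1. They were 0.686 to 1.95 for ET-1 over PBS and 0.764 to 1.77 for the mutant over wild type with ET-1.

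Sox3 (ENSMUSG00000045179, mm9 chrX:58144541-58146605), which in mice also acts in pituitary and pharyngeal development, was far lower than Sox2. It had 1.65 FPKM in the mutant (160 reads), 1.54 FPKM in wild type with ET-1 (63 reads) and 1.87 FPKM in wild type with PBS (83 reads). The Sox2 level was 22.4 times the Sox3 level in the mutant, 26.1 times in wild type with ET-1 and 20.7 times in wild type with PBS. The Sox3 folds were 0.824 (0.585 to 1.16) for ET-1 over PBS and 1.07 (0.796 to 1.46) for the mutant over wild type with ET-1. Both intervals held 1, and both were wide because so few reads lay behind them. The noncoding neighbour Gm14662, 222 bases from Sox3, had 2.09 FPKM in the mutant, 2.00 FPKM in wild type with ET-1 and 3.42 FPKM in wild type with PBS.

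Sox1 (ENSMUSG00000079994, mm9 chr8:12396353-12397562), which neuroepithelial cells switch on as they commit to a neural fate, was near the limit of detection. The table listed it at 0.475 FPKM in the mutant and at the whole numbers 4 in wild type with ET-1 and 1 in wild type with PBS, which are pooled reads and not FPKM. The mutant value stood for 27 reads. On the FPKM scale this came to 0.475 in the mutant (0.313 to 0.692), 0.167 in wild type with ET-1 (0.0455 to 0.427) and 0.0384 in wild type with PBS (0.000973 to 0.214). Reads scaled to depth gave a ratio of 2.85 for the mutant over wild type with ET-1 (0.992 to 11.2), which holds 1. The ratio of the mutant to wild type with PBS was 12.4 (2.04 to 507), resting on 1 read in wild type with PBS. Among 419 genes that, like Sox1, had whole numbers in the wild-type groups and 4 reads in wild type with ET-1, the median was 5 mutant reads. Of these genes, 22.0% had at least the 27 mutant reads of Sox1. They were picked by a low wild-type count, so this share is not a test of Sox1. The gene model counted 1210 bases, against 4832 exon bases in GENCODE M21, so most of the annotated transcript was not counted.

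The ZIC genes were the strongest of the families here, with Zic1 and Zic5 between 34.5 and 47.5 FPKM and Zic2 between 21.7 and 22.6 FPKM over the 3 groups. ZIC proteins bind DNA through zinc fingers, and the window of 90 coding bases below lies in that domain. It is shown because it holds the longest stretch that Zic1 and Zic2 have in common, and capitals mark bases that differ from Zic1 (GENCODE M21, 5′ to 3′, coding strand).
Zic1, coding bases 697 to 786: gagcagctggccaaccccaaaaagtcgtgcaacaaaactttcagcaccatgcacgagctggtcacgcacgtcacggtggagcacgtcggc
Zic2, coding bases 787 to 876: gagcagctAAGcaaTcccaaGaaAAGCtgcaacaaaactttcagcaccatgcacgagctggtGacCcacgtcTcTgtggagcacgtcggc
Zic5, coding bases 1141 to 1230: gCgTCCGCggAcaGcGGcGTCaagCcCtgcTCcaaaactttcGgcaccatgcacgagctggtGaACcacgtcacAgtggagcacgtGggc
Zic2 differed from Zic1 at 13 of these bases (85.6% identical) and Zic5 at 23 (74.4% identical). The longest identical coding stretch was 35 bases between Zic1 and Zic2, 20 between Zic1 and Zic5 and 26 between Zic2 and Zic5. Of the 50-base words of Zic5 transcripts, 7.46% also occurred in other annotated genes, and none in another member. That share was 2.75% for Otx2, 0.774% for Sox1, 0.426% for Pax6 and 0.0598% for Lmx1a. It was 0 for Sox2, Sox3, Zic1, Zic2 and Pax7. Whether reads from shared words were placed in the wrong gene was not tested.

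Zic1 (ENSMUSG00000032368, mm9 chr9:91252896-91260648), which shapes the dorsal neural tube and cerebellum, had 43.5 FPKM in the mutant (11521 reads), 40.9 FPKM in wild type with ET-1 (4579 reads) and 40.4 FPKM in wild type with PBS (4912 reads). Its fold was 1.01 for ET-1 over PBS (0.972 to 1.05) and 1.06 for the mutant over wild type with ET-1 (1.03 to 1.10), and adjusting the p column in the authors' deposited table gave an adjusted p = 1 for each. Zic4, the partner gene 3161 bases away on the same chromosome, was lower at 10.6 FPKM in the mutant, 9.40 FPKM in wild type with ET-1 and 9.91 FPKM in wild type with PBS. The ratio of Zic1 to Zic4 was 4.11 in the mutant, 4.35 in wild type with ET-1 and 4.08 in wild type with PBS. The pair thus kept nearly the same ratio of levels in the 3 groups.

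Zic2 (ENSMUSG00000061524, mm9 chr14:122874634-122879550), known for neural tube closure and forebrain midline formation, had 21.7 FPKM in the mutant (3438 reads), 21.7 FPKM in wild type with ET-1 (1451 reads) and 22.6 FPKM in wild type with PBS (1645 reads). In unscaled values it was the steadiest member: the fold was 1.00 for the mutant over wild type with ET-1 (0.940 to 1.06) and 0.958 for ET-1 over PBS (0.892 to 1.03). The first interval keeps an unscaled mutant difference from wild type with ET-1 within about 6% in either direction, as far as counting error goes. The median fold over all tested genes was 1.04 in that comparison. With the median log2 ratio scaled to 0, the mutant log2 fold was -0.05 for Zic2 and 0.03 for Zic1. The noncoding gene 2610035F20Rik, 212 bases from Zic2, had 4.38 FPKM in the mutant, 4.12 FPKM in wild type with ET-1 and 3.46 FPKM in wild type with PBS. Gm5089, 5679 bases from Zic5, had 2.66 FPKM in the mutant, 2.67 FPKM in wild type with ET-1 and 2.41 FPKM in wild type with PBS.

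Zic5 (ENSMUSG00000041703, mm9 chr14:122856017-122864899) lies head to head with Zic2, 9734 bases apart, and in mice is needed for neural tube closure and crest formation. Zic5 had 47.5 FPKM in the mutant (10904 reads), 34.5 FPKM in wild type with ET-1 (3340 reads) and 38.4 FPKM in wild type with PBS (4036 reads). Its mutant value was the highest level of any member in any group. The fold for the mutant over wild type with ET-1 was 1.38 (1.32 to 1.43), a log2 fold of 0.45 on the FPKM + 1 scale. That difference had p = 0.00559 in the authors' deposited table, which became 0.0980 on adjustment, and so did not pass. For ET-1 over PBS the fold was 0.899 (0.858 to 0.941), and adjusting the p column in the authors' deposited table gave an adjusted p = 1. Set beside wild type with PBS, the mutant stood at 1.24 (1.19 to 1.28), with no test of that pair. Zic5 and Zic2 did not keep a fixed ratio: Zic5 over Zic2 was 2.19 in the mutant, 1.59 in wild type with ET-1 and 1.70 in wild type with PBS. That change of ratio between neighbouring genes was not tested.

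**Figure D2:**
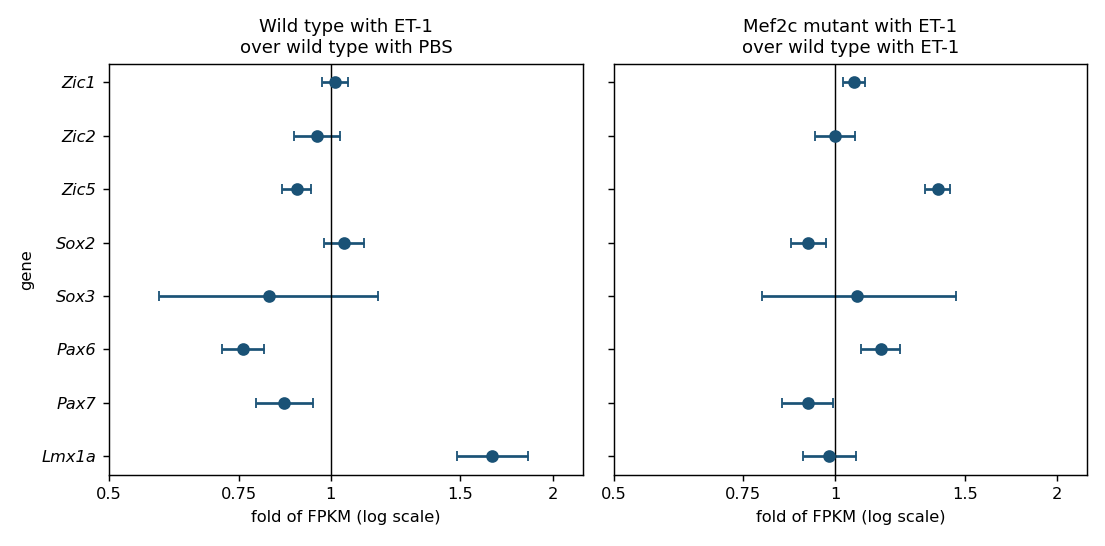
Folds of FPKM on a log scale for the 8 progenitor factors, wild type with ET-1 over wild type with PBS at the left and Mef2c mutant with ET-1 over wild type with ET-1 at the right, with bars for the exact 95% counting interval. Lmx1a lies at 1.66 at the left and Zic5 at 1.38 at the right, while the other folds lie between 0.760 and 1.15.

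The paired box members Pax6 and Pax7 had lower values with ET-1 than with PBS in wild type, without passing the test. Their relatives went the other way, at folds of 1.06 for Pax3, 1.10 for Pax2 and 1.14 for Pax8, none called. Pax6 (ENSMUSG00000027168, mm9 chr2:105509053-105538567), which patterns neural tube progenitors, not dorsal ones alone, and is best known for eye development, had 11.7 FPKM in the mutant (4071 reads), 10.1 FPKM in wild type with ET-1 (1491 reads) and 13.3 FPKM in wild type with PBS (2130 reads). The fold for ET-1 over PBS was 0.760 (0.711 to 0.813), the lowest of the 8 members, a log2 fold of -0.36. It had p = 0.0130 in the authors' deposited table, which became 0.643 on adjustment. For the mutant over wild type with ET-1 the fold was 1.15 (1.09 to 1.22), and adjusting the p column in the authors' deposited table gave an adjusted p = 0.913. The mutant value thus lay between both wild-type values, at 0.876 of wild type with PBS (0.831 to 0.923).

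Pax6 shares bases with its neighbours, and the sources used here do not give the strand of counting. It overlapped Elp4, a subunit gene of the elongator complex, by 1091 bases and the antisense transcript Pax6os1 by 1435 bases in mm9. Elp4 had 7.15 FPKM in the mutant, 4.57 FPKM in wild type with ET-1 and 6.38 FPKM in wild type with PBS. Its folds were 0.715 for ET-1 over PBS (0.639 to 0.800) and 1.57 for the mutant over wild type with ET-1 (1.42 to 1.73), neither of them called. Pax6os1 had under 1 FPKM in each group. Reads from the shared bases cannot be told apart between these genes, and their part in the Pax6 values was not tested.

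Pax7 (ENSMUSG00000028736, mm9 chr4:139292977-139388883), a dorsal neural tube factor that in mice also marks premigratory crest and muscle precursors, had 7.68 FPKM in the mutant (1908 reads), 8.38 FPKM in wild type with ET-1 (878 reads) and 9.69 FPKM in wild type with PBS (1103 reads). The fold was 0.865 for ET-1 over PBS (0.790 to 0.946), and adjusting the p column in the authors' deposited table gave an adjusted p = 1. It was 0.917 for the mutant over wild type with ET-1 (0.846 to 0.994), and adjusting the p column in the authors' deposited table gave an adjusted p = 0.889. Pax7 was the only one of the 8 members whose value was lower in both comparisons with intervals below 1, and neither passed the test.

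Lmx1a had the largest difference between the wild-type groups of any member. Lmx1a (ENSMUSG00000026686, mm9 chr1:169619370-169778872), the LIM homeobox gene needed for the roof plate, had 11.9 FPKM in the mutant (1891 reads), 12.1 FPKM in wild type with ET-1 (813 reads) and 7.30 FPKM in wild type with PBS (533 reads). The fold for ET-1 over PBS was 1.66 (1.48 to 1.85), a log2 fold of 0.66. It had p = 0.00193 in the authors' deposited table, which became 0.209 on adjustment, so it was not called. For the mutant over wild type with ET-1 the fold was 0.981 (0.903 to 1.07), and adjusting the p column in the authors' deposited table gave an adjusted p = 0.980. The mutant with ET-1 stood at 1.63 (1.48 to 1.79) of wild type with PBS, a pair that differs in treatment and genotype at once and was not tested. Both groups with ET-1 therefore had nearly the same Lmx1a level, above that of the group with PBS.

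Lmx1a was also the only member in the list of 406 genes that the authors named as induced, a list that held 2.49% of the genes tested. In the authors' deposited table of induced genes it had a normalized induction fold of 1.63, a mark for a MEF2 motif and no mark for dependence on MEF2C. All p-values of that table were under the threshold of 0.05 before adjustment, and 83.3% of its genes had the motif mark and 18.0% the dependence mark. The promoter is shown because of that motif mark: 250 bases before and 50 bases after the annotated start in RefSeq, GRCm38.p6, chr1:167689308-167689607, plus strand, with capitals for the bases from the start onward.
Lmx1a: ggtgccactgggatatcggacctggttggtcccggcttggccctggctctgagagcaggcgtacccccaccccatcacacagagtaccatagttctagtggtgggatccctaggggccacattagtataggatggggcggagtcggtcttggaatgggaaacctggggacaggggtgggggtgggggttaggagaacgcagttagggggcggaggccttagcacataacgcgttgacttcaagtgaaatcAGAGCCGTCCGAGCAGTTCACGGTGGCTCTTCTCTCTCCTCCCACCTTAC
This window was 59.3% GC. A search for the MEF2 consensus on both strands found no match in it. Among 32851 such windows of all genes, 3.19% held a match. Of 12 windows belonging to 8 of the members, 1 held a match, and it belonged to Otx2. Sox3 and Zic2 had no window to search. The absence of these letters from 300 bases says nothing of the motif that the authors marked, whose place the sources used here do not give.

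Otx2 (ENSMUSG00000021848, mm9 chr14:49277354-49287319), the head organiser factor of forebrain and midbrain, had 0 reads in each group. A count of 0 allows up to 0.0151 FPKM in the mutant, 0.0359 FPKM in wild type with ET-1 and 0.0330 FPKM in wild type with PBS, taken at 3 reads. AC166574.1, the table's nearest gene to Otx2 at 1643 bases, had 0 reads in each group too. Several other forebrain and midbrain genes were at or near 0. Six3 had 0 reads in each group, and En2 had 2 reads in the mutant and 0 in both wild-type groups. Hesx1, a forebrain and pituitary factor, had 25 reads in the mutant (0.457 FPKM), 6 in wild type with ET-1 (0.260 FPKM) and 0 in wild type with PBS. Of the 9 listed forebrain and midbrain genes, 2 were tested, Gbx2 and Barhl2, and 0 were called in either comparison. Over all tested genes, 0.533% were called for ET-1 against PBS and 4.94% for mutant against wild type under ET-1. Gbx2, which is also expressed in hindbrain and spinal cord, had 8.95 FPKM in the mutant, 4.73 FPKM in wild type with ET-1 and 6.30 FPKM in wild type with PBS. Barhl2, also a spinal interneuron gene, had 2.78 FPKM in the mutant, 1.54 FPKM in wild type with ET-1 and 2.81 FPKM in wild type with PBS.

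**Figure D3:**
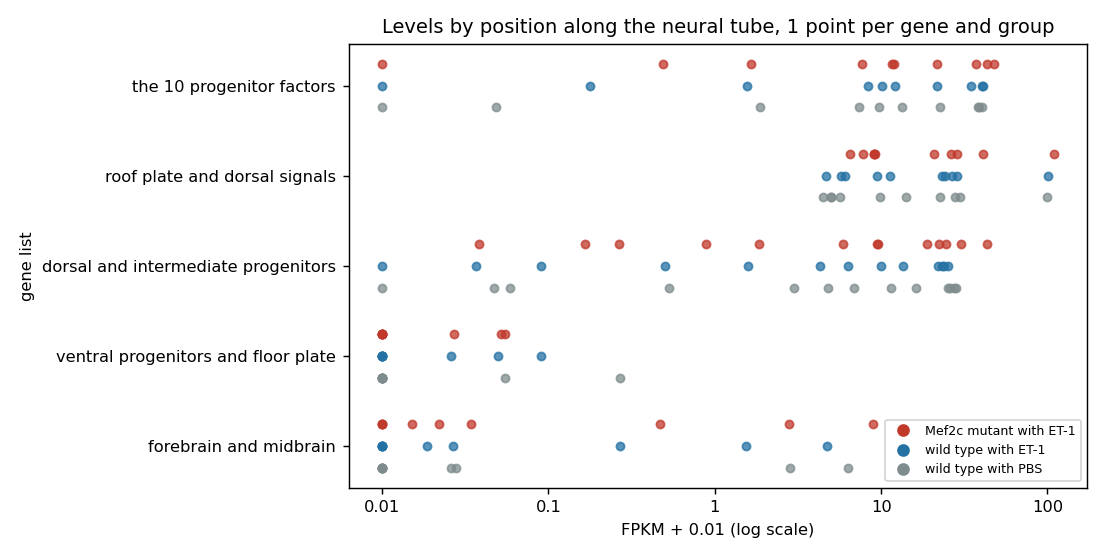
Levels of the progenitor factors and of 4 gene lists by position in the neural tube, as FPKM + 0.01 on a log scale, with 1 point per gene for the Mef2c mutant with ET-1 (red), wild type with ET-1 (blue) and wild type with PBS (grey). Roof plate genes lie above 4 FPKM in every group, and ventral genes stay under 0.3 FPKM.

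Roof plate genes were present and ventral genes were at or near 0 reads, as the plot of levels by position shows. All 10 roof plate and dorsal signal genes were tested, led by Wnt1, a roof plate ligand, at 109 FPKM in the mutant, 101 FPKM in wild type with ET-1 and 99.3 FPKM in wild type with PBS. Msx1, a dorsal midline homeobox gene, followed at 40.7 FPKM in the mutant, 28.6 FPKM in wild type with ET-1 and 27.8 FPKM in wild type with PBS. Of the 8 ventral and floor plate genes none had FPKM in the wild-type groups. Shh, Foxa2 and Nkx2-2 had 0 reads in each group, and the 8 genes together had 10 reads in the mutant, 6 in wild type with ET-1 and 10 in wild type with PBS. Their summed level was 0.104 FPKM in the mutant, 0.136 FPKM in wild type with ET-1 and 0.302 FPKM in wild type with PBS. Read numbers in this paragraph are not scaled to depth, which in the mutant was 2.37 times that of wild type with ET-1 and 2.18 times that of wild type with PBS. The highest of the 8 genes were Nkx2-9, with 1 read in the mutant, 1 in wild type with ET-1 and 7 in wild type with PBS, and Olig2, with 5 reads in the mutant, 4 in wild type with ET-1 and 0 in wild type with PBS. The list of dorsal and intermediate progenitor genes was mixed: 10 of 13 had FPKM in the wild-type groups, while Ptf1a had 2 reads in the mutant and 0 in both wild-type groups, Gsx1 had 14 in the mutant, 3 in wild type with ET-1 and 2 in wild type with PBS, and Dbx2 had 45 in the mutant, 2 in wild type with ET-1 and 3 in wild type with PBS. Among the members, Otx2, with no reads, and Sox1, near the limit of detection, do not bear out the label of progenitor factors in these cells.

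No roof plate gene was called in either comparison. With ET-1 against PBS, 0 of 10 roof plate genes were called, where 0.533% of all tested genes were called. Of the 10, 9 had a higher value and 1 a lower one, with a median log2 fold of 0.17 against 0.01 over all tested genes. Gdf7 and Bmp6, picked out after seeing their values, had folds near that of Lmx1a. Gdf7, a roof plate BMP ligand, had 20.7 FPKM in the mutant, 23.2 FPKM in wild type with ET-1 and 14.2 FPKM in wild type with PBS. Bmp6, another BMP ligand of the roof plate, had 9.08 FPKM in the mutant, 9.43 FPKM in wild type with ET-1 and 5.61 FPKM in wild type with PBS. Their ET-1 folds were 1.63 and 1.68, with adjusted p = 0.434 and 0.577 computed from the authors' deposited table, and both stood in the authors' induced list beside Lmx1a. For mutant against wild type under ET-1, 0 of 10 roof plate genes were called, where 4.94% of all tested genes were called. Of the 10, 6 had a higher value and 4 a lower one, with a median log2 fold of 0.17 against 0.05 over all tested genes.

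Olig3 was the only gene of the dorsal and intermediate progenitor list that was called. Of the 9 tested genes of that list, 0 were called for ET-1 against PBS, where 0.533% of all tested genes were called. All 9 had a lower value, with a median log2 fold of -0.19. For mutant against wild type under ET-1, 1 rose and 0 fell, with a median log2 fold of 0.25, where 1.18% of all tested genes rose. Olig3, which defines the dorsal progenitor domains, rose to 43.2 FPKM in the mutant, against 23.9 FPKM in wild type with ET-1 and 28.0 FPKM in wild type with PBS. Its mutant fold was 1.81 (1.69 to 1.94), and adjusting the p column in the authors' deposited table gave an adjusted p = 0.000203. Gli3, a repressor and transducer of hedgehog signals, had 30.1 FPKM in the mutant, 25.2 FPKM in wild type with ET-1 and 25.3 FPKM in wild type with PBS.

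The family relatives of the members were not called either. Of 9 relatives 6 were tested, with 0 called in each comparison. Over all tested genes, 0.533% were called for ET-1 against PBS and 4.94% for mutant against wild type under ET-1. At those shares, 0 calls among 6 genes do not set the relatives apart. Their median log2 fold was 0.09 for ET-1 against PBS and 0.16 for mutant against wild type under ET-1. Pax3, the sister gene of Pax7 and a crest inducer, was by far the strongest relative at 45.0 FPKM in the mutant, 37.0 FPKM in wild type with ET-1 and 34.8 FPKM in wild type with PBS. Sox21, a SOXB2 factor that opposes SOXB1 activity, had 8.90 FPKM in the mutant, 8.72 FPKM in wild type with ET-1 and 6.96 FPKM in wild type with PBS. Lmx1b, the close copy of Lmx1a, had 0.219 FPKM in the mutant, 0.125 FPKM in wild type with ET-1 and 0.287 FPKM in wild type with PBS, so that Lmx1a carried the signal of this pair. Otx1 had 25 reads in the mutant (0.0907 FPKM), 1 read in wild type with ET-1 (0.0086 FPKM) and 0 reads in wild type with PBS.

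**Figure D4:**
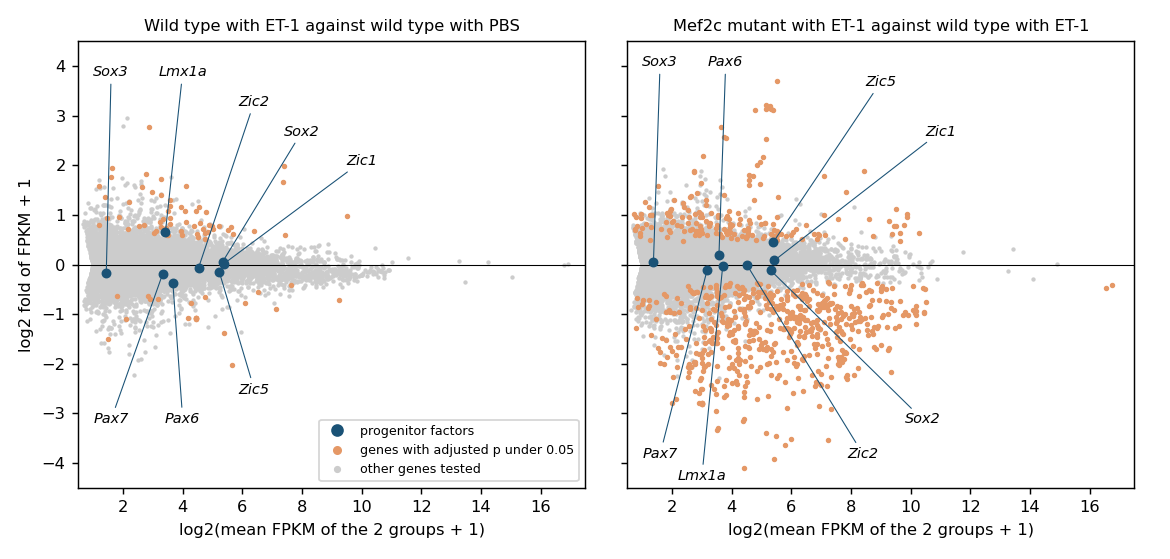
Log2 fold of FPKM + 1 against log2 of the mean FPKM of both groups + 1 for every tested gene, with called genes in orange and the 8 progenitor factors in blue. The members lie inside the cloud of genes that were not called, with Lmx1a at 0.66 for ET-1 and Zic5 at 0.45 for the mutant nearest its edge.

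The plot of folds against level places the 8 members within the cloud of uncalled genes in both comparisons. Their median log2 fold was -0.10 for ET-1 against PBS, against 0.01 over all tested genes, and 0.03 for mutant against wild type under ET-1, against 0.05 over all tested genes. For ET-1, 3 values were higher and 5 lower, where 52.3% of tested genes were higher. For the mutant, 4 were higher and 4 lower, where 57.2% were higher. The counting interval of the fold excluded 1 in 4 of 8 members for ET-1, with Lmx1a above 1 and Zic5, Pax6 and Pax7 below, where 46.3% of tested genes had such an interval, 25.1% above 1 and 21.2% below. It excluded 1 in 5 of 8 members for the mutant, with Zic1, Zic5 and Pax6 above 1 and Sox2 and Pax7 below, where 60.1% of tested genes had one, 36.3% above 1 and 23.8% below. These shares of members lie near those of all tested genes. The intervals are of folds not scaled to the median gene, and for the mutant the median fold over all tested genes was 1.04. The Zic1 interval of 1.03 to 1.10 held that median. With the median log2 ratio scaled to 0, the Zic1 log2 fold for the mutant went from 0.08 to 0.03. Both comparisons share the wild-type group with ET-1, so its value enters both folds of each gene.

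**Figure D5:**
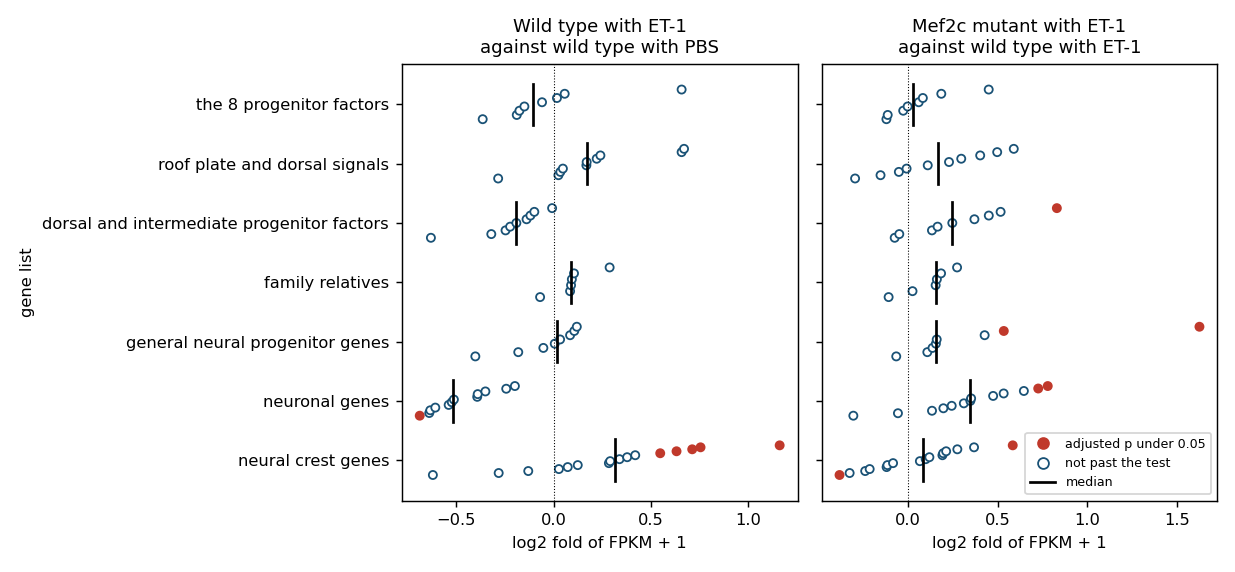
Log2 folds of FPKM + 1 for each tested gene of 7 lists, with called genes filled in red, other genes open and a bar at each median. The progenitor factors have medians of -0.10 and 0.03, the neuronal genes -0.52 and 0.35, and the neural crest genes 0.31 and 0.08.

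Marker lists of other cell states in the sort are set beside the members in the plot of folds by list. The 8 general neural progenitor genes summed to 327 FPKM in the mutant, 256 FPKM in wild type with ET-1 and 262 FPKM in wild type with PBS. The 8 members with FPKM had lower sums, at 183, 170 and 172 FPKM in the same order. Fabp7, a lipid-binding protein of radial progenitors, had 76.1 FPKM in the mutant, 56.3 FPKM in wild type with ET-1 and 64.0 FPKM in wild type with PBS. Msi1, an RNA-binding protein of progenitors, had 58.2 FPKM in the mutant, 60.8 FPKM in wild type with ET-1 and 60.6 FPKM in wild type with PBS. Of the 8 general progenitor genes 0 were called for ET-1 against PBS, where 0.533% of all tested genes were called. In mutant against wild type under ET-1, 2 of them rose, where 1.18% of all tested genes rose. Hes5, a Notch target that holds back neurogenesis, rose to 45.4 FPKM in the mutant, against 14.1 FPKM in wild type with ET-1, a fold of 3.23 (2.93 to 3.57) for which adjusting the p column in the authors' deposited table gave an adjusted p = 2.43e-14. Nes, the intermediate filament nestin, rose to 38.2 FPKM in the mutant, against 26.1 FPKM in wild type with ET-1, a fold of 1.47 (1.41 to 1.53) for which adjusting the p column in the authors' deposited table gave an adjusted p = 0.0183.

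Neuronal genes had lower values with ET-1 in all 12 tested genes, with a median log2 fold of -0.52, and 1 was called, where 0.143% of all tested genes fell. Dcx, a microtubule protein of young neurons, fell to 4.69 FPKM in wild type with ET-1, against 8.17 FPKM in wild type with PBS, and adjusting the p column in the authors' deposited table gave an adjusted p = 0.000629. In mutant against wild type under ET-1, 2 of 13 rose, where 1.18% of all tested genes rose. Dcx rose to 8.77 FPKM in the mutant, against 4.69 FPKM in wild type with ET-1, and the neurogenic factor Neurod4 rose to 15.8 FPKM in the mutant, against 9.15 FPKM in wild type with ET-1. Tubb3, a neuronal tubulin and the highest of the list, had 37.3 FPKM in the mutant, 38.8 FPKM in wild type with ET-1 and 46.1 FPKM in wild type with PBS. Nhlh1, a neurogenic helix-loop-helix factor, had 24.4 FPKM in the mutant, 30.4 FPKM in wild type with ET-1 and 39.0 FPKM in wild type with PBS. Of 16 neural crest genes 5 rose with ET-1 (Sox10, Tcfap2b, Ets1, Ngfr and Erbb3) and 0 fell, where 0.390% of all tested genes rose and 0.143% fell. Of these 16 genes, 13 had a higher value and 3 a lower one, with a median log2 fold of 0.31. Sox10, the glial and crest factor, rose to 61.0 FPKM in wild type with ET-1, against 35.7 FPKM in wild type with PBS. Ngfr, a neurotrophin receptor, rose to 39.0 FPKM in wild type with ET-1, against 23.4 FPKM in wild type with PBS, and Erbb3, a neuregulin receptor, to 31.7 FPKM in wild type with ET-1, against 20.1 FPKM in wild type with PBS. Tcfap2a, an AP-2 factor that was not called, had 48.1 FPKM in the mutant, 45.9 FPKM in wild type with ET-1 and 37.5 FPKM in wild type with PBS. For mutant against wild type under ET-1, 1 of 16 crest genes rose and 1 fell, where 1.18% of all tested genes rose and 3.75% fell. Tcfap2b, an AP-2 factor of crest, rose to 40.0 FPKM in the mutant, against 26.4 FPKM in wild type with ET-1, and Ets1, an ETS factor of crest, fell to 24.1 FPKM in the mutant, against 31.7 FPKM in wild type with ET-1. Dlx5, also on the crest list, was not tested, because its wild-type values were whole reads. It had 121 reads in the mutant, 3 in wild type with ET-1 and 1 in wild type with PBS. Scaled to depth, the mutant stood at 17.0 times wild type with ET-1 (5.69 to 83.7). The p in the authors' deposited table was 0.158. The summed level of the crest list was 318 FPKM in the mutant, 298 FPKM in wild type with ET-1 and 208 FPKM in wild type with PBS, and that of the neuronal list was 169 FPKM in the mutant, 148 FPKM in wild type with ET-1 and 202 FPKM in wild type with PBS. Such sums weigh the highest genes most. The median level was 7.46, 5.94 and 5.25 FPKM in the crest list and 10.1, 8.03 and 11.8 FPKM in the neuronal list, for the groups in the same order. The part of these shifts in the Lmx1a and Pax6 values was not tested.

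Markers of cells outside the neural lineage were present at various levels. The summed level of 5 epithelial markers was 3.37 FPKM in the mutant, 4.83 FPKM in wild type with ET-1 and 6.28 FPKM in wild type with PBS, led by Krt18 and Epcam. The 4 endothelial markers summed to 1.83 FPKM in the mutant, 2.46 FPKM in wild type with ET-1 and 2.97 FPKM in wild type with PBS, led by Egfl7 and Kdr. The 4 mesodermal markers, which matter here because somites express Zic genes and Pax7, summed to 7.24 FPKM in the mutant, 7.38 FPKM in wild type with ET-1 and 5.55 FPKM in wild type with PBS, led by Meox1 and Tbx6. The 5 erythroid markers summed to 17.1 FPKM in the mutant, 29.7 FPKM in wild type with ET-1 and 31.2 FPKM in wild type with PBS, led by Hbb-y and Hba-x. Hbb-y, an embryonic globin, had 4.22 FPKM in the mutant, 10.5 FPKM in wild type with ET-1 and 15.2 FPKM in wild type with PBS, the last above the Pax6, Pax7 and Lmx1a levels of that group. The 4 cardiac muscle markers summed to 5.98 FPKM in the mutant, 4.75 FPKM in wild type with ET-1 and 3.03 FPKM in wild type with PBS, led by Actc1 and Myh6, with Nkx2-5 at 0 reads in each group. The 3 macrophage markers summed to 13.2 FPKM in the mutant, 5.96 FPKM in wild type with ET-1 and 6.23 FPKM in wild type with PBS, led by Cd68 and Csf1r. Cd68, a lysosomal protein of macrophages, rose to 12.4 FPKM in the mutant, against 5.54 FPKM in wild type with ET-1, above the mutant levels of Pax6, Pax7 and Lmx1a, while Ptprc, the pan-leukocyte marker, had 0 reads in both of these groups.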

How the data were processed

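The members and gene lists were chosen with earlier results of these data known. RNA was isolated with RNeasy Micro columns, and NuGEN Ovation and Encore kits made the libraries, per the labels' protocols. TopHat 1.3.1, Cufflinks 1.3.0, Cuffdiff and mm9 appear in the submitters' processing notes. The authors deposited 1 FPKM value per group and gene, with a p-value per comparison, per the file headers; the sources used here do not give the test behind it, and how far it covers the spread between embryos is unknown. In 15639 genes the deposited wild-type numbers were whole counts summing to at most 19 and were treated as pooled reads. The authors also deposited a normalized induction fold (a ratio) for the genes they called induced. A limma fit was planned for values per sample, but only group values were held, so the authors' p-values were adjusted by Benjamini-Hochberg over genes with FPKM in the pair of groups and 1 FPKM or more in at least 1 of them. Log2 folds used a pseudocount of 1, which understates change in low genes. Pooled reads came out whole, within 0.02, for 92.4% to 92.7% of single-exon genes, and gene model lengths gave the reads of other genes. For Pax6 that length, 7438 bases, is 1 of several possible, so its read numbers and interval widths are uncertain while its fold is not. The recovery of depths and gene model lengths and the Benjamini-Hochberg adjustment were tested on simulated data. In the simulation, the depth search began near the truth and annotated lengths lay close to the true ones. Some real lengths differed more, as for Zic2, with 3379 bases recovered and 2880 exon bases in GENCODE M21. Recovery at such differences was not tested. By rule, named genes were all 10 members, the genes nearest them, Mef2c, and from each list the called genes and the 2 highest. Gdf7, Bmp6, Sox21, Pax2, Pax8, Lmx1b, Otx1, Six3, En2, Hesx1, Shh, Foxa2, Nkx2-2, Ptf1a, Gsx1, Dbx2, Dlx5, Ptprc and Nkx2-5 fall outside that rule and were named after their values were seen. Alternatives were a pseudocount of 0.1, no filter, a filter of 5 FPKM and median scaling. Computations used Python 3.11.15, pandas 2.3.3, numpy 2.4.6 and scipy 1.17.1.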

Additional observations from a re-analysis of the deposited data

How the results depend on the processing

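The 0 members called in each comparison stayed at 0 with a pseudocount of 0.1, with no filter on low values, with a filter of at least 5 FPKM and with the median log2 ratio over tested genes scaled to 0. The 62 log2 folds of members under these settings kept their direction, with 0 reversed and 0 newly called. The lowest adjusted p of a member over them, computed from p-values of the authors' deposited table, was 0.169 for ET-1 against PBS and 0.0744 for mutant against wild type under ET-1. At 5 FPKM, 7 members were left in each comparison and Sox3 was not tested. Scaling moved the log2 ratios of all genes by 0.02 for ET-1 against PBS and by 0.05 for mutant against wild type. Leaving out a replicate could not be run, because the tables analysed here hold group values only. No paired analysis was possible because the group values carry no replicate numbers. Depth limits Sox1 and Sox3 most.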
